A study of Mustela putorius furo and Mus musculus with 4 samples.

Results

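The cells described here are the *UNC5D* pyramidal neurons of the E39 ferret cortex, a set of 5743 cells of the 23241 ferret cells with at least 750 detected genes (24.7%, exact binomial interval 24.2 to 25.3%), out of 41602 cells in the whole series. They were chosen by their own counts. A cell was kept when it had a unique molecular identifier (UMI, 1 counted transcript molecule) in at least 3 of the 6 genes *UNC5D*, *SEMA3C*, *NRP1*, *GRIK1*, *DPYD* and *EPHA3*. It also had to have at most 1 UMI of *EOMES*, the intermediate progenitor factor, no UMI of the interneuron genes *ADARB2* and *LHX6*, fewer than 3 of the 6 upper layer genes *CUX2*, *BCL6*, *PRSS12*, *THSD7A*, *FIBCD1* and *ANOS1*, and fewer than 3 of the 6 deep layer genes *NTS*, *ZFPM2*, *TLE4*, *FOXP2*, *HS3ST4* and *CDH18*. The levels of these genes in the chosen cells are therefore a description of the choice.

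The study sampled single cells of wild type ferret cortex at embryonic day 39 (E39) and of CD1 mouse cortex at E18, from wild type embryos and embryos with *Smo* deleted by hGFAP-Cre (Smo CKO). The mouse embryos labeled wild type are described in the paper as *Smo*F/F littermate controls. The ferret cells came from the bilateral cortex of 1 embryo, were not sorted, and were captured on droplets of the Chromium 10x platform. The labels give 2 ferret samples, both wild type. With 1 embryo there is no biological replicate, so no test was run and no p-value is given.

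Pyramidal neurons (PyNs), the excitatory projection neurons of the cortex, are born from radial glial (RG) cells and *EOMES* intermediate progenitors. Newborn PyNs pass through a multipolar stage in the subventricular and intermediate zones before they migrate along radial fibers into the cortical plate. *UNC5D* encodes a receptor for netrins and for FLRT proteins, and is known as a marker of these multipolar and migrating neurons. Semaphorins, ephrins, slits and their receptors guide the migration and the outgrowing axons.

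Each ferret barcode ends in 1 or 2, which no label links to a sample, and the cells of each ending are called set 1 and set 2 of the same embryo. Set 2 was deeper and stood apart in makeup. It held a median of 3514 UMIs per cell against 2555 in set 1, and *EOMES* progenitors, defined below, made up 5.42% of its cells against 2.36%. The *UNC5D* cells numbered 2186 of 10187 cells in set 1 (21.5%) and 3557 of 13054 in set 2 (27.2%). Their median depth was 2168 UMIs in set 1 and 2981 in set 2. 38 barcodes occurred in both sets, and 20 *UNC5D* cells carried one of them. Leaving these cells out moved each count of genes given below by less than 1.5 times. No doublet caller was run, and no *UNC5D* cell had more than 5000 genes or 10% or more mitochondrial UMIs.

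Levels are given as CPM, the UMIs of a gene per 1000000 UMIs of all cells of a class together, with set 1 and set 2 beside them. Intervals are exact 95% intervals (Poisson for a level, conditional binomial for a ratio, Clopper-Pearson for a share) and cover counting error only. The *UNC5D* cells were compared with 4 classes set by rule. The other PyNs were 8770 cells with at least 3 of 8 pyramidal genes (among them *NEUROD2*, *NEUROD6*, *TBR1*, *BHLHE22*, *SLA*, *SLC17A7*, *SLC17A6*), the same limits on *EOMES*, *ADARB2* and *LHX6*, and fewer than 3 rule markers or at least 3 layer genes. The upper layer class (1666 cells) had at least 3 of the 6 upper layer genes, fewer than 3 rule markers and fewer than 3 deep layer genes, and the 90.3% of it with pyramidal markers belonged to the other PyNs as well. The deep layer class (604 cells) had at least 3 of the 6 deep layer genes, fewer than 3 rule markers and fewer than 3 upper layer genes. The *EOMES* progenitors (947 cells) had at least 2 *EOMES* UMIs. All 4 classes, like the *UNC5D* cells, had no *ADARB2* or *LHX6* UMI, and the upper and deep layer classes had at most 1 *EOMES* UMI. A class of 1313 RG cells and one of 141 microglia, the immune cells of the brain, served as cells that should lack most neuronal genes. Median depth was 2671 UMIs in the *UNC5D* cells, 3870 in the other PyNs and 3189 in microglia.

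The label of pyramidal neurons was checked with the 8 pyramidal genes, none of which was used to choose the cells. At least 3 of them were detected in 4192 of the 5743 *UNC5D* cells (73.0%), with 63.4% in set 1 and 78.9% in set 2. The share was 17.8% in *EOMES* progenitors, 10.4% in RG cells and 13.5% in microglia. Over all 23241 cells, the *UNC5D* cells among them, it was 59.6% (58.4% in set 1 and 60.5% in set 2). It was 63.6% in cells that met every other condition with 2 rule markers, so the *UNC5D* cells stood only somewhat above these. *NEUROD6*, a factor of postmitotic PyNs, stood at 894 CPM in the *UNC5D* cells, 1127 in the other PyNs and 135 in *EOMES* progenitors. *NEUROD2*, a related factor, stood at 436, 436 and 108 CPM in the same order. Both genes helped to choose the other PyNs, so their levels in that class are tied to that choice. Most *UNC5D* cells thus carried pyramidal markers, but 1551 of them had fewer than 3. These cells were shallower, at a median of 2223 UMIs against 2919. They held more RNA of other cell types. The summed level of 10 interneuron genes was 456 CPM in them against 84.9 in the rest, and that of 8 RG genes 412 against 154. The part of these cells in the results below was measured by leaving them out. The label's word migrating could not be checked, because position was not recorded in these data.

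The 6 genes that chose the cells differed widely in how many *UNC5D* cells carried them. *EPHA3*, an ephrin-A receptor, was detected in 98.6% of them and *UNC5D* in 91.5%. *SEMA3C*, a secreted semaphorin, was detected in 75.6%, *DPYD*, the first enzyme of pyrimidine breakdown, in 38.9%, *NRP1*, a semaphorin co-receptor, in 31.4%, and *GRIK1*, a kainate receptor subunit, in 23.2%. *EPHA3* and *UNC5D* were thus carried by nearly all of the cells, and the other 4 by fewer. Over all ferret cells with at least 750 genes, the shares in the same order were 74.6%, 49.6%, 32.4%, 20.5%, 11.3% and 10.1%. *EPHA3* was thus common in the whole table. In microglia, at median depths of 3189 UMIs against 2671 in the *UNC5D* cells, the same shares were 29.1%, 18.4%, 9.22%, 12.8%, 16.3% and 2.13%. With each cell of at least 2000 UMIs thinned to 2000, the shares in the *UNC5D* cells were 91.3%, 78.6%, 58.9%, 27.3%, 23.8% and 17.2%.

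In CPM, *UNC5D* stood at 1085 (1069.9 to 1099.9) in the *UNC5D* cells, with 935 CPM in set 1 and 1151 in set 2, and at 261 in the other PyNs. *EPHA3* stood at 1728 CPM (1597 CPM in set 1 and 1786 in set 2), and at 918 in *EOMES* progenitors and 692 in the other PyNs. In these cells, which the markers themselves chose, it had the least contrast of the rule markers with either the other PyNs or *EOMES* progenitors. With each marker left out of the choice, as described below, *DPYD* had the lowest ratio to the other PyNs, 1.88 against 2.42 for *EPHA3*. In cells of 2000 to 6000 UMIs these ratios were 2.26 and 2.24. *SEMA3C* stood at 454 CPM (509 CPM in set 1 and 429.6 in set 2), against 131 in *EOMES* progenitors and 49.9 in the upper layer class. *NRP1* stood at 142 CPM (106 CPM in set 1 and 158 in set 2), against 3.52 in the upper layer class and 56.7 in microglia. *GRIK1* stood at 116 CPM (123 CPM in set 1 and 112 in set 2) and *DPYD* at 176 CPM (167 CPM in set 1 and 180.5 in set 2). For all 6 genes both sets of the *UNC5D* cells lay above both sets of every other class drawn in the plot of rule markers.

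**Figure D1:**
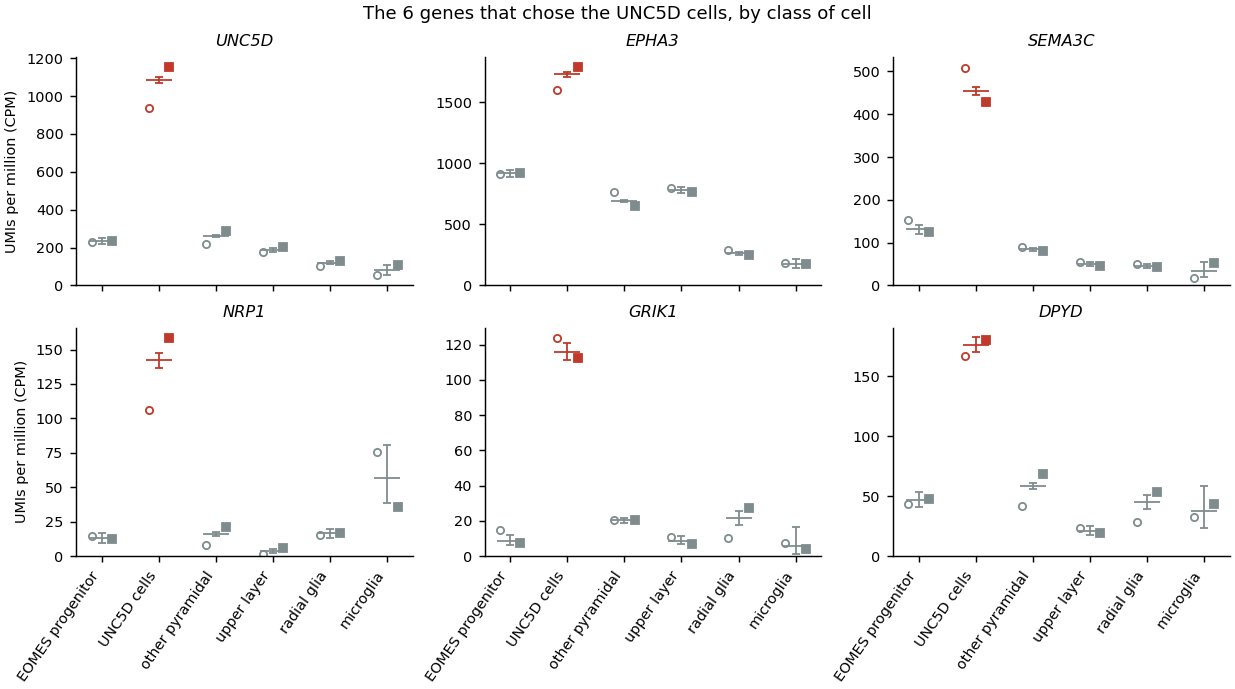
Level of the 6 genes that chose the cells, in CPM (y axis from 0), in 6 classes of ferret cells (x axis). Bars with caps are the level of both sets together with its exact Poisson interval, open circles set 1 and filled squares set 2; the *UNC5D* cells (red) stand highest for each gene because these genes chose them, with *EPHA3* at 1728 CPM against 918 in *EOMES* progenitors.

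Each marker was also read in cells it did not choose. For this, cells were taken that had at least 3 of the 5 remaining markers and met the other conditions, and the marker left out was compared with the other PyNs, defined by the same 5. *NRP1* stood at 121 CPM in such cells against 25.7 in the other PyNs, a ratio of 4.69 (4.35 to 5.06; 5.11 in set 1 and 4.38 in set 2). The ratio was 3.16 for *GRIK1*, 3.03 for *UNC5D*, 2.81 for *SEMA3C*, 2.42 for *EPHA3* and 1.88 for *DPYD*. Each of the 6 left-out markers was higher in both sets. Among cells of 2000 to 6000 UMIs, where the classes had closer depths, the 6 ratios ran from 2.24 (*EPHA3*) to 5.38 (*NRP1*). Each marker was thus higher in cells chosen by the other 5 than in the other PyNs. The 6 markers were themselves picked with earlier results of these data known, so these ratios are a description and no independent support.

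Most *UNC5D* cells just met the rule. Exactly 3 markers were detected in 3222 cells, 4 in 1767, 5 in 633 and all 6 in 121. Another 3980 cells met every other condition with 2 markers. The most frequent combination was *UNC5D*, *SEMA3C* and *EPHA3* without the other 3, in 1816 cells (31.6%). Next came the same genes with *NRP1* (550 cells) and with *DPYD* (547 cells). On the 2 sides of the threshold, cells with 2 and with 3 markers had *UNC5D* at 343 and 895 CPM, *SEMA3C* at 90.8 and 377, and *NRP1* at 23.8 and 54.6.

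Of 15 genes outside the rule read along the number of markers, some were graded on both sides of the threshold and others were not. Of those named here, all but *NEUROD1* were also 2-fold different from the other PyNs in the same data. Their values along the number of markers are therefore no separate support. *CCSER1*, a coiled-coil protein gene, stood at 69.2 CPM in cells with no marker, 335 with 2, 669 with 3 and 1279.5 with 6. *SEMA3A*, a secreted semaphorin, stood at 43.6, 76.5, 102 and 141 CPM at the same steps. *GRIN2A*, an NMDA receptor subunit, stood at 6.56, 15.1, 39.1 and 53.1 CPM. These 3 genes were higher at each added marker. *MEF2C*, a factor of maturing cortical neurons, went the other way from 1 marker on, at 1158 CPM with 1, 675 with 3 and 360.3 with 6. *FEZF2*, the factor that specifies corticospinal neurons, stood at 102 CPM with none, 20.9 with 3, 15.6 with 4, 22.9 with 5 and 9.24 with 6. *SSTR2*, a somatostatin receptor, was highest at 3 markers (23.3 CPM) and stood at 1.70 with none and 11.5 with 6, and *NEUROD1*, a neurogenic factor, stood between 52.6 and 73.9 from 2 markers on without a trend. *NRN1*, which encodes the neurite growth protein neuritin, stood at 33.4 CPM with none and between 203 and 224 from 3 markers on, so it reached its level at the threshold and did not climb further. The cells with no marker also held fewer PyNs (33.6% with pyramidal markers, against 68.1% with 3 markers).

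**Figure D2:**
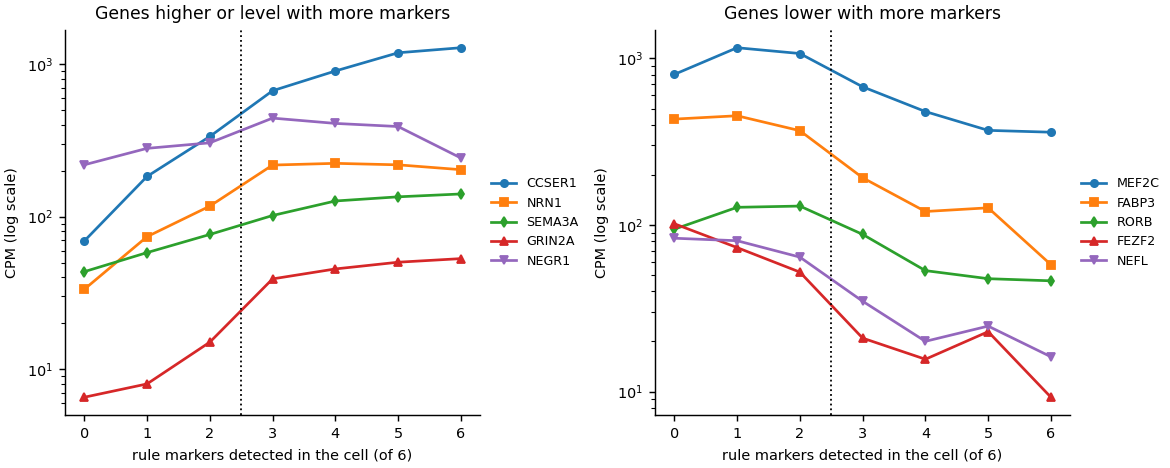
Level of 10 genes outside the rule (CPM, log scale) against the number of rule markers detected in a cell, among ferret cells that met every other condition; cells right of the dotted line are the *UNC5D* cells. *CCSER1* runs from 69.2 to 1279.5 CPM across the axis and *FEZF2* goes from 102 to 9.24.

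The grading was read again along *UNC5D* alone, in cells of 2000 to 6000 UMIs that met the conditions on genes, *EOMES* and interneuron genes only. *SEMA3C* was detected in 17.1% of the 6592 cells with no *UNC5D* UMI, 34.1% of those with 1, 53.7% with 2 or 3 and 70.2% of the 2458 cells with 4 or more. The median depth of the 4 bins ran from 2946 to 3324 UMIs. In microglia, 9.22% of cells carried *SEMA3C* at a median of 3189 UMIs. From the first to the last bin, *CCSER1* went from 185 to 1045 CPM and *NRP1* from 16.9 to 162. *MEF2C* went from 1079 to 344 CPM, *FEZF2* from 43.5 to 9.16, and *RORB*, a layer 4 factor, from 113 to 31.3. *ROBO2*, a slit receptor, was level from no UMI (1123 CPM) to 1 (1079) and reached 2402 CPM at 4 or more. *CCSER1*, *MEF2C*, *FEZF2*, *RORB* and *ROBO2* were also 2-fold different from the other PyNs in the same data. *SEMA3C* and *NRP1* are rule markers, picked with earlier results of these data known. The course of all these genes along *UNC5D* is therefore no separate support.

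Against the other PyNs, the *UNC5D* cells had more transcripts of *NRN1*, *CCSER1*, the netrin receptor gene *DSCAM* and the progenitor gene *INSM1*, and fewer of the neurofilament genes *NEFL* and *NEFM*, the layer factors *FEZF2*, *RORB* and *MEF2C*, and *PENK*. Of 14207 genes with at least 50 UMIs in the 2 classes together, 282 (1.98%) were at least 2-fold higher on the log2(CPM + 1) scale with the same direction in both sets, and 216 (1.52%) were at least 2-fold lower. These counts hold the genes that chose the cells. The other PyNs also hold cells that the rule left out for their layer genes, so lower layer factors are tied to the choice. The median log2 ratio of all genes was 0.06. With 10 CPM added in place of 1, which shrinks low genes, the counts were 83 and 38, and among cells with at least 4 of the 6 markers they were 345 and 437.

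The 12 named genes with the highest ratios, rule genes left out, began with *LYZ*, which encodes the secreted enzyme lysozyme. Its 284 UMIs came from 29 *UNC5D* cells, and 79.2% of them from 5 cells, so the value is that of a few cells. Without the *UNC5D* cells that carried at least 3 markers of another cell type, its direction was no longer the same in both sets. *RASGEF1B*, an exchange factor of Ras family GTPases, stood at 27.4 CPM (30.3 CPM in set 1 and 26.2 in set 2) against 4.65 (5.90-fold, 4.97 to 7.03). *NANOS1*, a repressor of translation, stood at 27.9 CPM (18.5 CPM in set 1 and 32.0 in set 2) against 5.08 (5.48-fold). *SSTR2* stood at 20.1 CPM (18.2 CPM in set 1 and 21.0 in set 2) against 3.70 (5.44-fold, 4.48 to 6.64). Both sets of the *UNC5D* cells lay above both sets of the other PyNs for these 3 genes. *RASGEF1B* and *SSTR2* were as high or higher in *EOMES* progenitors, at 49.6 and 23.0 CPM, whereas *NANOS1* stood at 11.0 there.

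*NRN1* reached 219 CPM (207 CPM in set 1 and 225 in set 2) against 49.2 in the other PyNs (4.46-fold, 4.22 to 4.71). *CCSER1* stood at 815 CPM (673 CPM in set 1 and 878 in set 2) against 217 (3.76-fold, 3.66 to 3.86). *TNFAIP8* stood at 175 CPM against 42.8, and *BTG1*, an antiproliferative gene, at 128 against 31.9. Each of these 4 was at least 3.76-fold higher in the *UNC5D* cells. *TEAD1*, the transcription factor of the Hippo pathway, stood at 73.7 CPM against 18.9, and *TMTC2* at 52.8 against 12.5. Both were higher still in RG cells, at 141 and 106 CPM. The remaining 2 were *NEB*, which encodes nebulin (8.93 against 1.31 CPM), and *LURAP1L* (24.5 against 5.19).

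**Figure D3:**
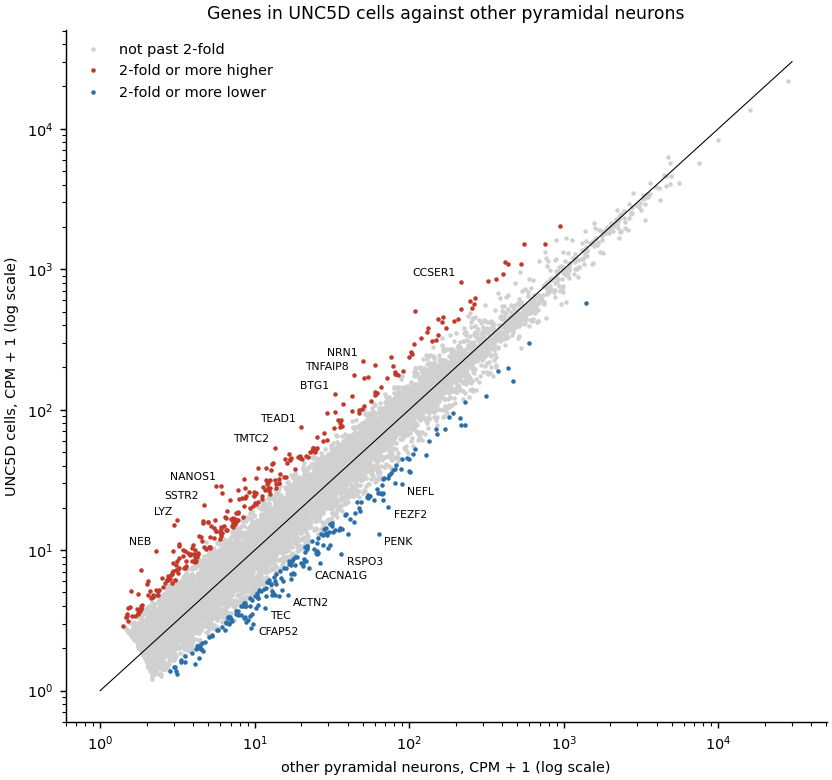
Level of each gene with at least 50 UMIs in the *UNC5D* cells (y axis) and in the other PyNs (x axis), as CPM + 1 on log scales, rule genes left out; the line marks equal levels. Red genes were at least 2-fold higher and blue genes at least 2-fold lower in the *UNC5D* cells with the same direction in both sets, and *CCSER1* (815 against 217 CPM) and *NEFL* (28.7 against 88.8) are among the labeled genes.

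Among the 12 genes with the lowest ratios, *PENK*, the precursor of enkephalin peptides, stood at 11.99 CPM in the *UNC5D* cells (30.3 CPM in set 1 and 3.88 in set 2) and 62.8 in the other PyNs (123 CPM in set 1 and 26.7 in set 2), a ratio of 0.191 (0.166 to 0.219). The sets did not separate fully, since set 1 of the *UNC5D* cells lay above set 2 of the other PyNs. *FEZF2* stood at 19.3 CPM (8.57 CPM in set 1 and 24.0 in set 2) against 72.4 (24.2 CPM in set 1 and 101 in set 2), a ratio of 0.266. *RSPO3*, an amplifier of WNT signals, stood at 8.44 CPM against 35.3 (0.239 times). *NEFL*, the light neurofilament subunit, stood at 28.7 CPM (17.8 CPM in set 1 and 33.5 in set 2) against 88.8 (56.5 CPM in set 1 and 108 in set 2), a ratio of 0.323 (0.294 to 0.354). *RSPO3* and *NEFL* were lower in both sets of the *UNC5D* cells than in either set of the other PyNs. *INHBA*, an activin subunit, stood at 12.1 CPM against 39.1, *IGFBP3*, an insulin-like growth factor binding protein, at 7.10 against 25.3, and *CACNA1G*, a T-type calcium channel, at 6.51 against 21.6. *CCN2*, a gene of subplate and layer 6b neurons, stood at 3.71 CPM against 13.4. *ACTN2*, *CFAP52*, *SLC24A4* and *TEC* completed the 12, each at under 4 CPM in the *UNC5D* cells and at 8.47 to 15.4 CPM in the other PyNs. All 12 kept their direction when only *UNC5D* cells with pyramidal markers were used.

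In the netrin system, the receptor *DSCAM* was the gene outside the rule that differed most from the other PyNs. *NTN1*, the secreted ligand of UNC5 receptors, gave 3 UMIs in all *UNC5D* cells and *NTN4* stood at 25.7 CPM. *DSCAM*, an immunoglobulin adhesion molecule and netrin receptor, stood at 1119 CPM (937 CPM in set 1 and 1199 in set 2) against 413 in the other PyNs (2.71-fold, 2.65 to 2.76). It stood at 188 CPM in *EOMES* progenitors, so its level was higher in the *UNC5D* cells than on either side. *DCC*, a netrin receptor, stood at 515 CPM against 359 in the other PyNs and 832 in *EOMES* progenitors. *NEO1*, the DCC relative neogenin, stood at 145 against 78.3 CPM. Neither passed 2-fold against the other PyNs. Among the relatives of *UNC5D*, *UNC5C* stood at 123 CPM (58.8 CPM in set 1 and 151 in set 2) against 73.2 in the other PyNs and 13.4 in *EOMES* progenitors, whereas *UNC5A* and *UNC5B* stood at 2.64 and 1.29 CPM. Of the ligands that bind UNC5D on other cells, *FLRT2* stood at 179 CPM against 179 in the other PyNs and *FLRT3* stood at 13.98 against 7.50. Of the 17 genes of the netrin, UNC5 and FLRT list, 14 could be compared outside the rule, and 1 was 2-fold higher (*DSCAM*) and none 2-fold lower, where 1.98% of all genes were higher and 1.52% lower. The list's median log2 ratio was 0.00, near that of all genes (0.06).

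Apart from *SEMA3C* and *NRP1*, 21 of the semaphorin list's 23 genes were compared, and 1 (*SEMA3A*) was 2-fold higher and 1 (*SEMA3E*) 2-fold lower, where 1.98% of all genes were higher and 1.52% lower. *SEMA3A* stood at 114 CPM in the *UNC5D* cells (106 CPM in set 1 and 118 in set 2) against 55.5 in the other PyNs (47.7 CPM in set 1 and 60.2 in set 2), a ratio of 2.06 (1.94 to 2.19). *SEMA3E* stood at 9.84 CPM (14.3 CPM in set 1 and 7.84 in set 2) against 29.9 (40.9 CPM in set 1 and 23.3 in set 2), a ratio of 0.329 (0.28 to 0.385). *SEMA3A* was as high in *EOMES* progenitors (132 CPM), and *SEMA3E* was as low there (7.46 CPM). Of the receptors, *PLXNA2* stood at 282 against 206 CPM and *PLXNA4* at 234 against 184, while *NRP2*, the other neuropilin, stood at 0.753 against 1.10. *SEMA3A* lay at the edge of the limit, with a log2 ratio of 1.03 that was 0.96 without set 1 and 0.94 as the mean of per-cell CPM. The list's median log2 ratio was -0.05.

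In the ephrin system the receptor *EPHA4* was higher and the ligand *EFNA5* lower. *EPHA4* stood at 94.4 CPM (78.7 CPM in set 1 and 101 in set 2) against 46.4 in the other PyNs (37.7 CPM in set 1 and 51.7 in set 2), a ratio of 2.03. Its log2 ratio of 1.01 was 0.88 with only the *UNC5D* cells with pyramidal markers and 0.96 without set 1, both under the 2-fold limit. *EFNA5* stood at 35.2 CPM (43.0 CPM in set 1 and 31.8 in set 2) against 100.2 (111 CPM in set 1 and 93.7 in set 2), a ratio of 0.352 (0.323 to 0.382). Both sets of the *UNC5D* cells lay outside the range of the other PyNs for these 2 genes. *EPHA5* stood at 1054 against 784 CPM and *EPHA7* at 61.2 against 86.2. The list of 18 genes had 14 compared, with 1 higher and 1 lower, where 1.98% of all genes were higher and 1.52% lower, and a median log2 ratio of 0.31.

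Of the slit receptors, *ROBO2* stood at 2042 CPM in the *UNC5D* cells (2376 CPM in set 1 and 1893 in set 2), 952 in the other PyNs (2.15-fold, 2.11 to 2.18) and 3679 in *EOMES* progenitors. *ROBO1* stood at 1335 CPM, with 792 CPM in set 1 and 1576 in set 2, against 751 (419 CPM in set 1 and 949.5 in set 2). The *ROBO1* sets overlapped between the classes, and its ratio was 1.78. The ligand *SLIT2* stood at 110.4 CPM against 63.8, with *SLIT1* at 8.66 and *SLIT3* at 2.96 CPM. *ROBO2* was the 1 gene of the 8 compared that passed 2-fold, where 1.98% of all genes were higher. The limit was lost with only the *UNC5D* cells with pyramidal markers (log2 ratio 0.89) and without set 1 (0.97), and *ROBO2* stood at 3101 CPM in the *UNC5D* cells lacking pyramidal markers against 1763 in the rest.

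**Figure D4:**
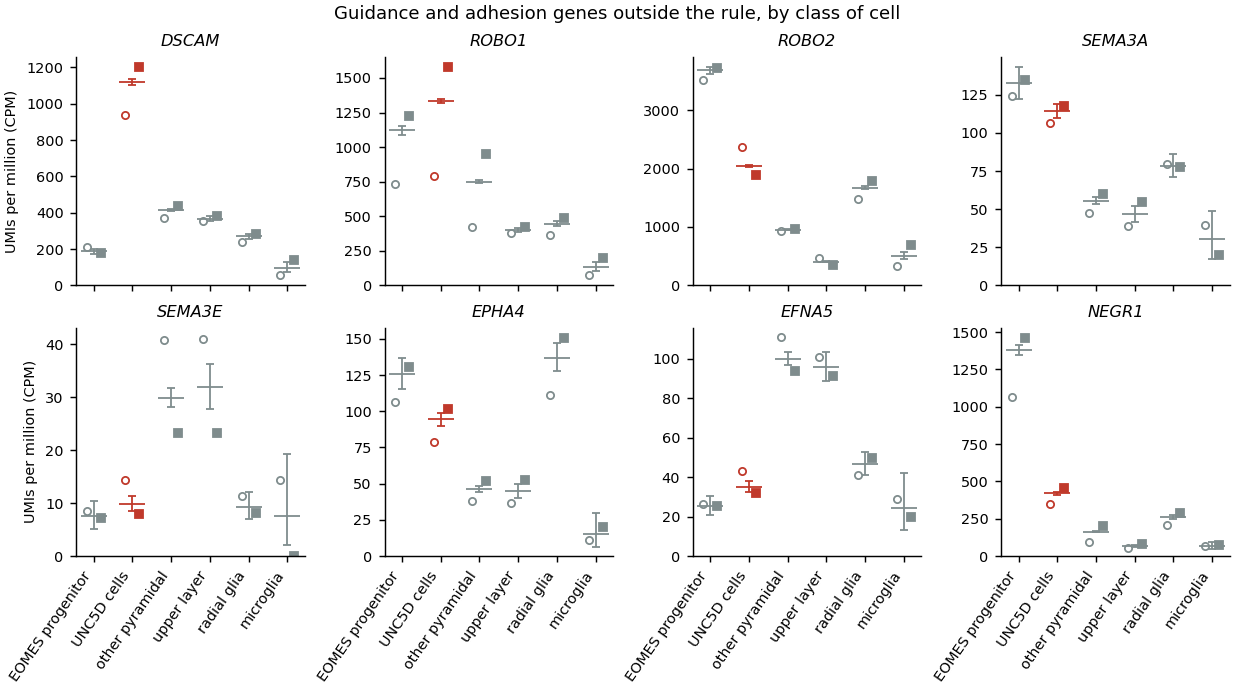
Level of 8 guidance and adhesion genes that did not choose the cells (CPM, y axis from 0) in 6 classes of ferret cells (x axis). Bars with caps are the level of both sets together with its exact Poisson interval, open circles set 1 and filled squares set 2; *DSCAM* stands at 1119 CPM in the *UNC5D* cells (red) against 188 in *EOMES* progenitors and 413 in the other PyNs, and *EFNA5* at 35.2 against 100.2 in the other PyNs.

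Among adhesion molecules, members of 1 family differed in both directions. *NEGR1* and *NTM*, membrane-anchored immunoglobulin proteins of neurons, stood at 421 and 1508 CPM against 163 and 751 in the other PyNs, and *OPCML*, of the same family, at 297 against 596. *CNTN5*, a contactin, stood at 844 against 361 CPM, and its relatives *CNTN1* and *CNTN3* at 44.0 against 95.8 and 18.1 against 47.3. Of the 19 contactin and immunoglobulin genes compared, 3 were 2-fold higher (*CNTN5*, *NTM*, *NEGR1*) and 3 lower (*CNTN1*, *CNTN3*, *OPCML*), where 1.98% of all genes were higher and 1.52% lower, with a median log2 ratio of -0.49. *NTM* and *OPCML* lay at the edge of the 2-fold limit, with ratios of 2.01 and 0.499. Of 16 cadherins and protocadherins, none was 2-fold higher and 2 were lower, *CDH9* (14.4 against 29.9 CPM) and *CDH13* (31.5 against 67.7), where 1.52% of all genes were lower. With only the *UNC5D* cells with pyramidal markers, *CNTN1*, *OPCML*, *CDH9* and *CDH13* were under the limit, at log2 ratios of -0.97, -0.82, -0.87 and -0.99.

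Among transmitter receptors, *GRIN2A* was 2-fold higher than in the other PyNs, and subunits of AMPA, NMDA and GABA receptors were among those 2-fold lower. *GRIN2A* stood at 42.7 CPM (34.6 CPM in set 1 and 46.3 in set 2) against 15.9 in the other PyNs (11.0 CPM in set 1 and 18.8 in set 2), a ratio of 2.69 (2.42 to 2.99), and at 11.4 in *EOMES* progenitors. *GRIN2B*, the NMDA receptor subunit of immature neurons, stood at 282 and 281 CPM. *GRIN1*, the obligatory NMDA receptor subunit, stood at 11.8 against 26.5 CPM, and *GRIA4*, an AMPA receptor subunit, at 14.8 against 42.6. Of the 18 ionotropic receptor genes compared, 1 was 2-fold higher and 3 lower (*GRIA4*, *GRIN1*, *GRIN3A*), where 1.98% of all genes were higher and 1.52% lower. The metabotropic receptors had the lowest median of all lists outside the rule, at -0.92 over 6 genes (-0.88 in set 1 and -0.94 in set 2). *GRM3* stood at 12.4 against 31.0 CPM and *GRM5* at 173 against 345, just inside the 2-fold limit. Of 11 GABA receptor genes, 3 were 2-fold lower (*GABRB2*, *GABRG1*, *GABBR2*) and none higher, where 1.52% of all genes were lower. Without set 2, the limit was lost by all of the 2-fold lower genes named here but *GRIA4*, and with only the *UNC5D* cells with pyramidal markers by *GABRG1* (-0.89) and *GABBR2* (-0.97). In cells of 2000 to 6000 UMIs, the log2 ratio of *GABRG1* went from -1.04 to -0.19. The GABA receptor list's median went from -0.34 to -0.08 there.

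Of 26 genes of synapses and the neuronal cytoskeleton compared, none was 2-fold higher and 4 were lower, where 1.52% of all genes were lower, with a median log2 ratio of -0.42 (-0.37 in set 1 and -0.48 in set 2). *SYT4*, a synaptotagmin, stood at 198 CPM (157 CPM in set 1 and 216 in set 2) against 433 (345 CPM in set 1 and 486 in set 2). *NEFM*, the medium neurofilament subunit, stood at 77.2 CPM (41.3 CPM in set 1 and 93.2 in set 2) against 216 (142 CPM in set 1 and 259.7 in set 2), and *CAMK4*, a calcium-dependent kinase, at 29.2 against 80.3. For these 3 and *NEFL* both sets of the *UNC5D* cells lay below both sets of the other PyNs. With only the *UNC5D* cells with pyramidal markers, *SYT4* was under the limit (log2 ratio -0.93). *SYT1*, the calcium sensor of vesicle release, stood at 572 and 521 CPM.

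Among layer factors outside the rule, none was 2-fold higher and 3 of 19 were lower, namely *MEF2C* (572 against 1386 CPM), *RORB* (71.5 against 169) and *FEZF2*, where 1.98% of all genes were higher and 1.52% lower. Cells with at least 3 layer genes were kept out of the *UNC5D* cells and stayed among the other PyNs. Lower layer factors are therefore tied to the choice of cells, and how far was not tested. *BCL11B*, the factor of subcerebral neurons, stood at 49.6 against 50.1 CPM, and *NFIB* stood at 1614 against 884. Of 18 migration genes, *RND2*, a small GTPase needed for radial migration, was the 1 that passed 2-fold, at 22.4 CPM (15.2 CPM in set 1 and 25.6 in set 2) against 7.29 (4.93 CPM in set 1 and 8.71 in set 2), a ratio of 3.08 (2.64 to 3.59), where 1.98% of all genes were higher. In *EOMES* progenitors it stood at 13.4 CPM. *DCX*, the microtubule protein of migrating neurons, stood at 144 CPM, between 105 in the other PyNs and 219 in *EOMES* progenitors, and *NEUROD1*, a factor of the same stage, stood at 59.3 against 58.0 in the other PyNs. The list's median was 0.05, against 0.06 for all genes.

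Of 7 intermediate progenitor genes compared, with *EOMES* left out, 4 were 2-fold higher than in the other PyNs (*NEUROG2*, *NEUROD4*, *INSM1* and *SSTR2*), where 1.98% of all genes were, and *PENK*, which is in this list, was lower, with a median log2 ratio of 1.09. *INSM1*, a factor of delaminating progenitors, stood at 109 CPM (145 CPM in set 1 and 92.3 in set 2) against 36.3 (52.9 CPM in set 1 and 26.4 in set 2), and at 263 in *EOMES* progenitors. *NEUROG2*, the proneural factor, stood at 74.9 against 34.7 and 214 CPM in the same classes, and *NEUROD4* at 8.93 against 2.52 and 177. For these 3 genes the *UNC5D* cells stood between the other classes. *NEUROG2* was under the 2-fold limit without set 2 (log2 ratio 0.94) and as the mean of per-cell CPM (0.95). It was also under it in cells of 2000 to 6000 UMIs (0.99) and with 10 CPM added (0.92). Of 8 RG genes, *PAX6* (13.2 against 5.06 CPM) and *GLI3* (40.5 against 15.3) were 2-fold higher, and of 10 cycling genes *TOP2A* and *CENPF*, where 1.98% of all genes were higher. These low levels moved with the cells left in. With only the *UNC5D* cells with pyramidal markers, *PAX6*, *TOP2A* and *CENPF* were under the limit (0.85, 0.53 and 0.44). Without the 1551 cells lacking pyramidal markers, the RG list's median log2 ratio went from 0.71 to 0.21 and the cycling list's from 0.73 to 0.09. With the cells that carried at least 3 markers of another cell type left out, which lowers these lists by construction, the glial list's median went from 0.66 to -0.18, and the RG and cycling medians were -0.62 and -0.22. Without the cells lacking pyramidal markers, the intermediate progenitor list's went from 1.09 to 1.02, and with 10 CPM added it was 0.60.

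Markers of other cell types were at low levels. The summed CPM of 10 interneuron genes was 162 in the *UNC5D* cells (155 in set 1 and 166 in set 2) and 86.3 in the other PyNs. That of 6 microglial genes was 20.5 against 18.8, and that of 8 endothelial and mural genes 40.1 against 22.5. The last difference came from set 1, at 75.9 against 23.4, while set 2 gave 24.2 against 21.9. At least 3 genes of a list were detected in 135 *UNC5D* cells for RG, 124 for cycling, 45 for interneuron, 20 for endothelial and mural and 12 for microglial genes. With every cell of this kind left out, 5472 *UNC5D* cells remained. Then 241 genes were higher and 266 lower than in the other PyNs, of which 229 and 198 were among the 282 and 216 given above. Of 10 stress and immediate early genes compared, *JUN* (51.2 against 23.8 CPM) and *JUND* (425 against 193) were 2-fold higher, where 1.98% of all genes were. None was 2-fold lower, and the list's median log2 ratio was -0.25. *JUN* and *JUND* were under the limit with only the *UNC5D* cells with pyramidal markers (0.99 and 0.95). *FOS* stood at 36.0 against 56.2 CPM and *EGR1* at 24.7 against 37.7. Of the 9 interneuron, 7 endothelial and mural, 6 glial, 4 microglial and 3 Cajal-Retzius genes compared, none was 2-fold different, and the pyrimidine list could be compared for 2 genes besides *DPYD*, neither of them 2-fold different.

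Against the upper layer class, more genes were higher in the *UNC5D* cells than lower. Of 12659 genes, 510 (4.03%) were at least 2-fold higher and 140 (1.11%) lower in both sets. *SSTR2* (20.1 against 1.41 CPM), *NRN1* (219 against 28.5), *RASGEF1B* (27.4 against 3.10) and *LYZ* were among the 6 with the highest ratios. The other 2 were *SYNPR*, a synaptic vesicle protein gene (19.6 against 1.97 CPM), and *SPON1*, the extracellular matrix protein spondin (16.4 against 1.55). The lowest ratios were those of *CCN2* (3.71 against 31.6 CPM), *GRIA4* (14.8 against 103), *FBN2*, a fibrillin (9.30 against 65.7), *ACTN2*, *PENK* and *IGFBP3*. Of 8 slit and ROBO genes, 4 were 2-fold higher, where 4.03% of all genes were, and none lower. *ROBO1* stood at 1335 CPM against 402 (3.32-fold, 3.20 to 3.46), *ROBO2* at 2042 against 407 (5.01-fold) and *SLIT2* at 110.4 against 45.0. Both sets of the *UNC5D* cells lay above both sets of the upper layer class for these 3 genes. *BCL11B* was also higher (49.6 against 17.3 CPM), and *MEF2C* (572 against 1649) and *RORB* (71.5 against 238) were lower. The upper layer class was chosen for upper layer genes that the *UNC5D* cells had to carry fewer of, so values of layer factors are tied to the choice. *SLIT2* was under the limit without set 1 (log2 ratio 0.87) and *BCL11B* without set 2 (0.70). Markers of other cell types were also higher in the *UNC5D* cells than in the upper layer class. Of 6 endothelial and mural genes 4 were 2-fold higher (*PECAM1*, *CLDN5*, *FLT1*, *RGS5*), of 8 RG genes 3 (*PAX6*, *SLC1A3*, *GLI3*), of 6 intermediate progenitor genes 4, and the interneuron gene *SST* and the microglial gene *C1QC* were as well. The summed endothelial and mural level was 40.1 CPM in the *UNC5D* cells and 12.5 in the upper layer class, and the RG level 208 and 107 CPM. *ROBO1*, *ROBO2*, *SLIT2* and *SLIT3* kept the limit without the *UNC5D* cells that carried markers of another cell type.

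The deep layer class was a mixture, since 44.2% of its cells had pyramidal markers and its summed endothelial and mural level was 401 CPM against 40.1 in the *UNC5D* cells. Of 12611 genes, 338 (2.68%) were at least 2-fold higher in the *UNC5D* cells and 1273 (10.1%) lower, and with both classes limited to cells with pyramidal markers the counts were 486 and 714. The highest ratios were those of *TMEM26* (40.2 against 1.13 CPM), *TNFAIP8*, *NANOS1*, *ADAMTS18*, an extracellular protease (40.4 against 3.02), *CCSER1* and *SSTR2*. Among the lowest were those of *ADAMTSL1* (7.64 against 152 CPM), *GUCY1A1*, a soluble guanylate cyclase subunit (7.42 against 144), *EMB* (27 of its 51 UMIs in the *UNC5D* cells came from 5 cells), *PTPRU* and *MDGA2* (46.4 against 693). *PLXND1*, the receptor of SEMA3E, stood at 5.002 CPM against 30.5 (log2 ratio -2.39, and -0.60 with both classes limited to cells with pyramidal markers), and *SEMA3E* at 9.84 against 60.3. *FEZF2* (19.3 against 202 CPM) and *BCL11B* (49.6 against 144) were lower. The deep layer class was chosen for deep layer genes that the *UNC5D* cells had to carry fewer of, so these 2 values are tied to the choice.

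Against *EOMES* progenitors, the *UNC5D* cells had fewer transcripts of the cell cycle and more of synapses, adhesion and receptors. Of 12698 genes, 1051 (8.28%) were at least 2-fold higher and 1048 (8.25%) lower in both sets. All 10 cycling genes were 2-fold lower, with a median log2 ratio of -4.15 (-3.22 in set 1 and -4.57 in set 2). *TOP2A*, the topoisomerase of dividing cells, stood at 26.5 CPM (32.5 CPM in set 1 and 23.8 in set 2) against 581 (389.7 CPM in set 1 and 631 in set 2), and *UBE2C*, a ubiquitin enzyme of mitosis, at 32.6 against 860.2. *DLGAP5*, *AURKB*, *NDC80* and *CENPE*, all genes of the mitotic spindle and kinetochore, completed the 6 lowest, each at under 8 CPM in the *UNC5D* cells and at 92.4 to 197 CPM in the progenitors. The summed level of the 10 cycling genes was 220.2 CPM in the *UNC5D* cells, 135 in the other PyNs and 3363 in the progenitors.

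The 6 highest ratios against *EOMES* progenitors were those of *UNC5C* (123 against 13.4 CPM, 9.16-fold), *TAFA1*, a secreted protein gene (1306 against 161), *RASGRF2*, a Ras exchange factor of upper layer neurons (258 against 32.9), *CRABP1*, a retinoic acid binding protein (74.4 against 8.999), *BHLHE22* (230.2 against 31.6) and *IQCJ* (45.2 against 5.71). For all 6 both sets of the *UNC5D* cells lay above both sets of the progenitors. *BHLHE22* helped to choose the other PyNs, so its level there is tied to that choice. None of the rest of these 6 was 2-fold higher than in the other PyNs. Of 25 synapse and maturation genes, 16 were 2-fold higher, where 8.28% of all genes were, and none was lower, with *SYT4* at 198 against 39.3 CPM and *GAP43*, the growth cone protein, at 685 against 308. The contactin and immunoglobulin list had 11 genes higher and 1 lower of 19, the lower one being *NEGR1* (421 against 1378 CPM). Of 17 ionotropic glutamate receptor genes 9 were higher and 2 lower, and of 11 GABA receptor genes 6 were higher and none lower. With both classes limited to cells with pyramidal markers, 62 of the 138 named or listed genes 2-fold different from *EOMES* progenitors were under the limit, *GAP43* among them (log2 ratio 0.54), and none changed direction. *DAB1*, the adaptor of reelin signaling, stood at 323 CPM against 56.9 in the progenitors and 508 in the other PyNs. *SYT4*, *GAP43* and *DAB1* therefore lay between the progenitors and the other PyNs, while *RND3*, a small GTPase of newborn neurons, stood higher in the progenitors (296 against 60.1 and 53.6 CPM).

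**Figure D5:**
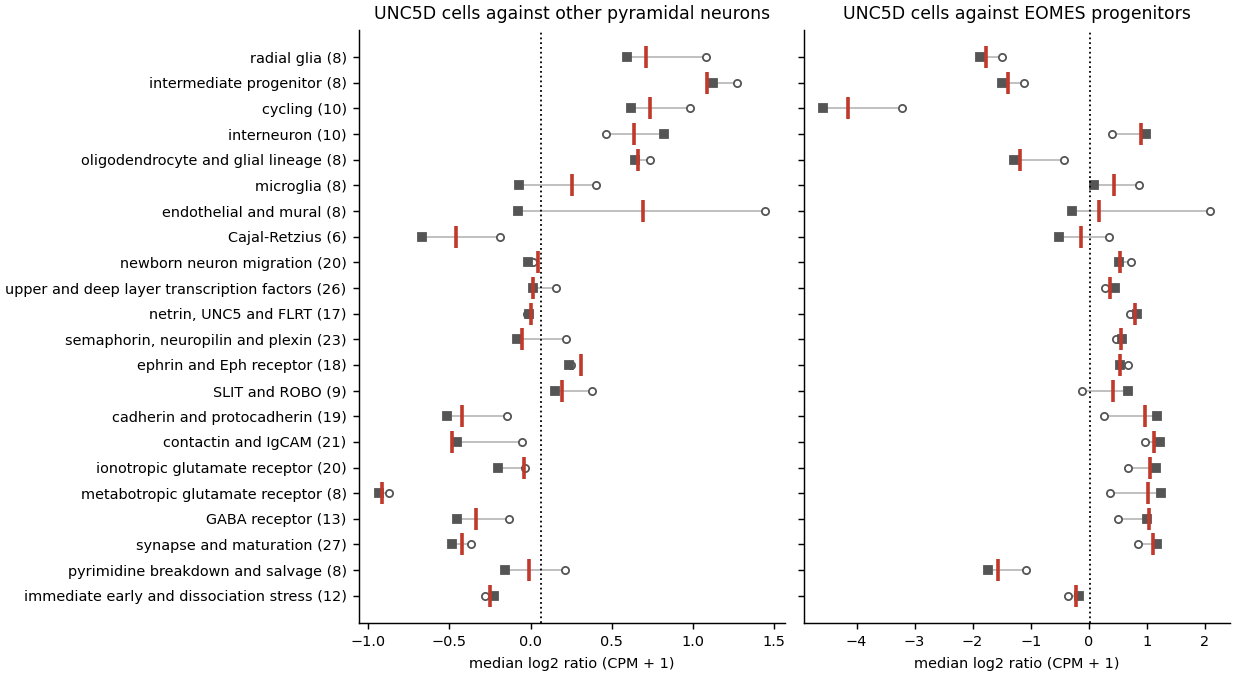
Median log2 ratio of CPM + 1 (x axis) of 22 gene lists (y axis, with the number of genes in each list) in the *UNC5D* cells against the other PyNs (left) and against *EOMES* progenitors (right), over genes with at least 50 UMIs that did not choose the cells. Red ticks are both sets together, open circles set 1, filled squares set 2 and the dotted line the median of all genes; the cycling list stands at -4.15 on the right and the metabotropic receptors at -0.92 on the left.

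The same rule was applied to the mouse table for orientation. It chose 1869 of 17765 mouse cells with at least 750 genes (10.5%), at a median of 3988 UMIs, with 13 of the 15 layer and exclusion genes in the table. *UNC5D* was detected in 44.8% of mouse cells and 49.6% of ferret cells, and *SEMA3C* in 34.8% and 32.4%. *EPHA3* was detected in 24.6% of mouse and 74.6% of ferret cells. *GRIK1* was detected in 0.647% of mouse and 10.1% of ferret cells, and *DPYD* in 1.22% and 20.5%. In mouse these 2 markers were also rare within the chosen cells, at 0.535% and 1.71%, so the rule worked there through the other 4. Species, stage, sorting of dye-labeled cells in mouse, genotype, gene models and depth all differ between the tables and cannot be told apart.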

How the data were processed

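Ferret and mouse cortical cells were captured on the Chromium 10x platform, and the authors deposited tables of UMI counts per gene and cell. Per the labels' processing notes these were made with Cell Ranger and StringTie and analyzed with Seurat 3. The ferret genome build is not given in the sources used here. The ferret table held 23482 cells and 22008 genes, of which 21910 symbols occur in RefSeq's ferret table, and 23237 cells lay within 750 to 5000 genes and under 10% mitochondrial UMIs, the limits stated by the study.

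The cells, the comparison classes and all gene lists were chosen with earlier results of these data known. Raw counts were summed per class and set and divided by the class total to give CPM, in Python 3.11.15 with NumPy 2.4.6, SciPy 1.17.1 and Matplotlib 3.10.9. Summing weights deep cells more than shallow ones, so the mean of per-cell CPM was an alternative. RG cells had at least 4 of 8 RG genes and microglia at least 3 of the microglial genes. A gene was compared where both classes together held at least 50 UMIs, and called 2-fold higher or lower where the log2 ratio of CPM + 1 passed 1 (or -1) with the same sign in both sets. This is a rule of size and no test, since the 1 embryo gives no replicates. The script was tested on simulated data before use. For shares at equal depth each cell of at least 2000 UMIs was thinned to 2000. Besides the rule genes and the lists, the text names, with a gene symbol and at least 200 UMIs, the 12 highest and 12 lowest ratios against the other PyNs and the 6 and 6 against each other class. Some genes that these rules name are not reported here. A list counts only genes that did not choose either class compared. Of 317 list entries, 305 were in the table. Reads shared between paralogs or overlapping genes cannot be traced in a count table.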

Additional observations from a re-analysis of the deposited data

How the results depend on the processing

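The number of *UNC5D* cells followed the rule. It was 9723 (41.8%) with at least 2 markers, 2521 (10.8%) with at least 4 and 3674 (19.4%) when the rule was read after thinning to 2000 UMIs, and the share was 23.7% with no *EOMES* UMI allowed. It was 3557 (27.2%) without set 1 and 2186 (21.5%) without set 2. Counts of genes 2-fold higher or lower depended most on the CPM added before the logarithm. With 10 CPM they were 83 and 38 against the other PyNs, 129 and 44 against the upper layer class, 144 and 546 against the deep layer class and 400 and 526 against *EOMES* progenitors. With at least 200 UMIs per gene, 314 were higher and 87 lower than in the upper layer class, 571 lower than in the deep layer class and 628 lower than in *EOMES* progenitors, and with at least 10 UMIs 1911 were lower than in the deep layer class; fewer or more genes were compared there. With at least 4 markers, 437 genes were lower than in the other PyNs and 240 lower than in the upper layer class. In cells of 2000 to 6000 UMIs, 522 were higher than in the deep layer class. Without set 2, 641 were lower than in the deep layer class and 556 lower than in *EOMES* progenitors. In an alternative chosen after seeing the data, with both classes limited to cells with pyramidal markers, 714 were lower than in the deep layer class, and 682 were higher and 546 lower than in *EOMES* progenitors. Where the compared genes and cells were not changed, the cause was not tested.

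The genes named by the rule and the list genes past 2-fold were followed through 13 settings, 4775 checks in all where the gene was still compared. In 4306 the direction and the limit were kept, in 459 the limit or the sign in 1 set was lost and in 10 the log2 ratio changed sign. Of the 62 genes against the other PyNs, 29 lost the limit with 10 CPM added, 12 without set 2, 7 without set 1 and 14 with only the *UNC5D* cells with pyramidal markers. Of the 24 highest and lowest, *NEB*, *SLC24A4*, *ACTN2*, *CFAP52*, *CCN2*, *TEC* and *CACNA1G* lost it with 10 CPM added and *LYZ* without cells carrying markers of another cell type, an alternative chosen after seeing the data. That alternative reversed *CENPF* (-0.16) and *TOP2A* (-0.10) against the other PyNs, and *CENPF* (-0.17), *CLDN5* (-1.02) and *SLC1A3* (-0.93) against the upper layer class, since these genes chose the cells left out. With both classes limited to cells with pyramidal markers, *CDH7* (0.21), *CENPF* (0.14), *CLDN5* (0.16), *PDGFRB* (1.66) and *TOP2A* (0.50) reversed against the deep layer class. Of 132 checks of list medians 41 moved by more than the difference between the sets, and the RG, cycling and glial medians changed sign as given above. Without cells carrying markers of another cell type, the microglial (0.26 to -0.71) and endothelial and mural (0.69 to -0.80) medians did as well. In some alternatives the small medians of the layer factor, netrin, semaphorin, ionotropic receptor and pyrimidine lists also changed sign. Depth moved 5 of 6 left-out marker ratios and all 6 thinned shares past their counting intervals. Leaving out cells with a barcode found in both sets was likewise chosen after seeing the data. No paired analysis was possible because the ferret cells came from 1 embryo and their sets carry no label of a sample. Depth limits low genes, since 3 UMIs over the *UNC5D* cells is the limit that a count of 0 allows.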
